A study of Mus musculus with 2 samples.

Results

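Receptor tyrosine kinases are membrane receptors with a tyrosine kinase domain inside the cell. A set of 55 mouse genes of this class, taken by symbol from a list arranged in 21 families, was examined in a gene count table of 54532 genes, and all 55 symbols were found, each under 1 gene ID and each annotated as protein-coding. The cells were 4T1, an established mouse mammary carcinoma line that arose in the BALB/c strain, and one sample carried a knockout of Cd28, a gene best known for a costimulatory receptor of T cells; the labels name a knockout sample (KO) and a wild-type sample (WT) of that line, 1 of each. The table holds a count column with the title of the KO sample and 1 further count column whose name matches no sample label, so only the KO library was used and the WT library was not analysed here. The values below are therefore levels in 1 library with no replicate, and no difference between KO and WT follows from them. Whether the KO cells were a clone or a pool, and how the gene was disrupted, is not given in the sources used here.

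Ligand binding brings receptor tyrosine kinases together, the kinase domains then phosphorylate each other, and adaptors such as GRB2 and SHC1 dock on the phosphotyrosines and pass the signal to RAS and PI3K. In carcinoma cells these receptors are known as drivers of growth, motility and drug resistance, and several of them are drug targets. Endocytosis, ubiquitin ligases of the CBL family, Sprouty proteins and phosphatases limit the signal.

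The KO library held 15565990 counted reads, 96.2% of them on protein-coding genes. Levels are given as reads and as TPM, in which each count is taken per base of gene length, as deposited, and all genes sum to 1000000. Bracketed ranges are exact Poisson 95% intervals and cover counting error only. A gene with at least 10 reads was called detected. A percentile is the percentage of the 11497 detected protein-coding genes that had a lower TPM; their median was 24.4 TPM and their 75th percentile 53.8 TPM. Cd28 itself (chromosome 1, 60716800 to 60773359) had 8 reads, or 0.249 TPM, a value that cannot be set against wild-type cells here. Of 11 markers of mammary epithelial cells 9 were detected, with Krt18 at 2183 TPM, Krt8 at 1005 TPM, Cldn4 at 424 TPM and Cdh1 at 268 TPM, while Krt5 and Cldn7 had 0 reads.

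The receptor genes fell into a detected and an undetected set of nearly equal size, and few of the detected ones carried most of the RNA. Of the 55 members 27 were detected (49.1%), against 52.2% of all 22046 protein-coding genes. A TPM above the median of detected genes was reached by 15 members (27.3%), against 26.1% of protein-coding genes, and 9 members lay above the 75th percentile (16.4%), against 13% of protein-coding genes. All 3 member shares lay near those of protein-coding genes in general, and the exact binomial intervals of the member shares (35.4% to 62.9%, 16.1% to 41% and 7.77% to 28.8%) include them. The members were longer than most genes, with a median gene length of 6641 bases against 3422 bases for protein-coding genes, so that at equal TPM a member collects more reads. Over all 55 members, undetected ones included, the median was 0.243 TPM, against 1.18 TPM over all protein-coding genes.

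Of the undetected members 20 had 0 reads and 8 had 1 to 9. The detection limit separated Ephb3, with 17 reads, from Tek, with 6. Together the members took 52201 reads, 0.335% of the library. Axl alone accounted for 29.7% of these reads (exact binomial 95% interval 29.3% to 30.1%) and for 35.2% of the members' summed TPM. The 9 members above the 75th percentile accounted for 80.9% of the summed TPM. These 9 were set apart by TPM itself. The like share over all protein-coding genes is not given here, so such concentration is not shown to be particular to the members.

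**Figure D1:**
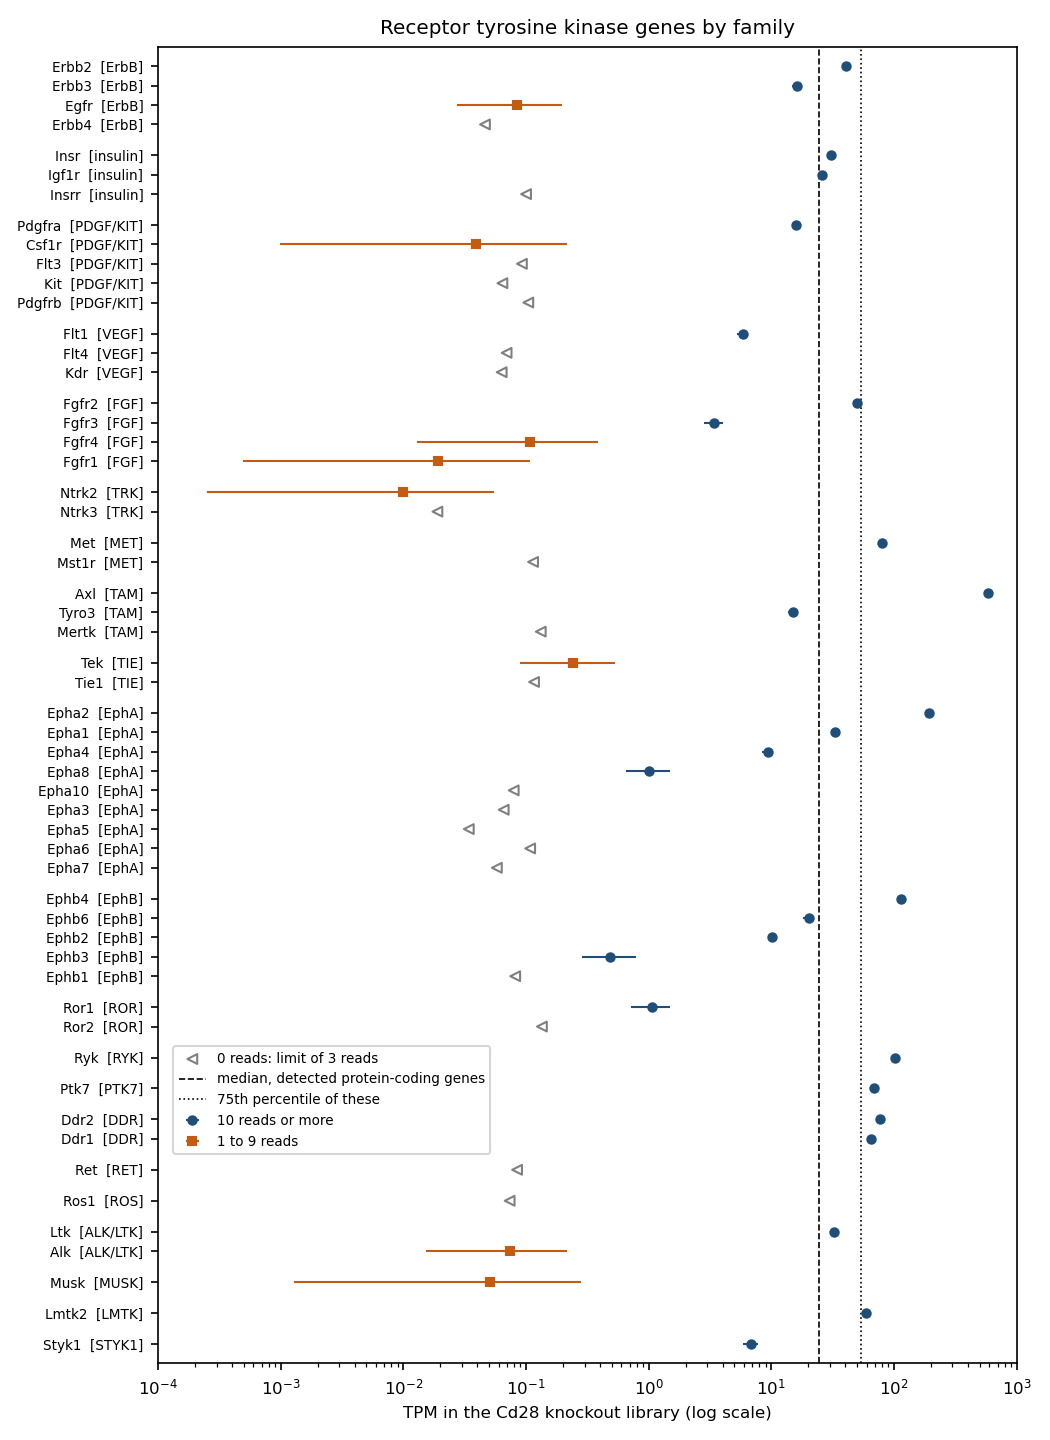
TPM of all 55 receptor tyrosine kinase genes in the KO library on a log axis, grouped by family; circles (10 reads or more) and squares (1 to 9 reads) carry exact Poisson 95% intervals, and open triangles mark members with 0 reads at the TPM that 3 reads would give. Axl stands alone at 586 TPM and 9 members lie right of the dotted 75th percentile line.

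The TAM family, whose receptors bind GAS6 and protein S and are known for damping innate immune responses and for mesenchymal and drug-resistant states of carcinoma cells, held the highest and some of the lowest values. Axl (ENSMUSG00000002602, chromosome 7, 25757273 to 25788705, minus strand, mm10) had 15481 reads and 586 TPM (577 to 596), at percentile 98.7 and at rank 154 among protein-coding genes. Tyro3 had 485 reads and 14.9 TPM (13.6 to 16.3), at percentile 35.5. Mertk had 0 reads. Axl was thus 39.3-fold above Tyro3 per length (35.9 to 43.1), and the intervals of the 3 genes were far apart. Both listed TAM ligand genes, Gas6 and Pros1, had 0 reads, with an interval that reaches up to 0.237 reads per 1000000 each. Other genes' exons cover 1.33% of the exon length of Gas6 and 0% of that of Pros1.

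Eph receptors bind membrane-bound ephrins on neighbouring cells and steer adhesion and cell sorting. Of the 9 EphA members 4 were detected and of the 5 EphB members 4 were detected. Epha2, an ephrin-A receptor often abundant in carcinomas (chromosome 4, 141301240 to 141329384, plus strand), had 4759 reads and 194 TPM (189 to 200), at percentile 95.1, second to Axl among the members. Ephb4, the receptor for ephrin-B2 (chromosome 5, 137350109 to 137378669, plus strand), followed with 2772 reads and 114 TPM (110 to 118), at percentile 90.1. Each led its subfamily: Epha2 exceeded Epha1, the next in EphA, 5.84-fold (5.39 to 6.34), and Ephb4 exceeded Ephb6, the next in EphB, 5.64-fold (5.07 to 6.27). Over Epha4 the margin of Epha2 was 20.7-fold (18.7 to 23). Over Ephb2 that of Ephb4 was 11.3-fold (10.4 to 12.3), or 4.65-fold with the length of the longest coding transcript.

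The remaining detected Eph receptors spanned a wide range. Epha1 had 685 reads and 33.3 TPM (30.8 to 35.8), with 6.01% of its exon length under exons of another gene. Ephb6, whose kinase domain is inactive, had 400 reads and 20.2 TPM (18.3 to 22.3). Ephb2 and Epha4, both best known from axon guidance, had 10.1 TPM (9.32 to 10.9) and 9.37 TPM (8.47 to 10.3), with a ratio of 1.07 (0.947 to 1.22). With the length of the longest coding transcript, which for Ephb2 is 4804 of 12608 bases, that ratio was 2.22 (1.95 to 2.52). Epha8 had 25 reads and Ephb3 17, or 1.01 and 0.488 TPM. Epha3, Epha5, Epha6, Epha7, Epha10 and Ephb1 had 0 reads each.

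Ephrin genes were expressed beside their receptors. Of 8 ephrin genes 7 were detected (against 52.2% of protein-coding genes) and 4 exceeded the median (against 26.1%). Over all 75 listed ligand genes 37 were detected and 17 exceeded the median, so ligands as a whole lay near those shares. Efna1, an ephrin-A ligand, had 94.2 TPM (88.1 to 100.5), Efnb2, the ligand of EPHB4, 75.7 TPM (72.9 to 78.6), and Efna4 45.4 TPM (41 to 50.2). Efna2 had 0 reads.

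The receptors of the MET family were far apart. Met, the receptor of hepatocyte growth factor and known for invasive growth (chromosome 6, 17463800 to 17573980, plus strand), had 3210 reads and 79.7 TPM (77 to 82.5), at percentile 83.9. Mst1r, which encodes the related receptor RON, had 0 reads. Hgf, the ligand gene of MET, also had 0 reads, and Mst1, that of RON, had 10 reads and 0.843 TPM. In these cells the receptor message was thus present without a detectable message of its ligand, as for Axl; ligand from serum or other cells was not measured.

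The discoidin domain receptors, which are activated by collagen, were both above the 75th percentile. Ddr2, known mainly from mesenchymal cells (chromosome 1, 169972307 to 170110762, minus strand), had 3719 reads and 76.5 TPM (74.1 to 79), and Ddr1, known mainly from epithelia (chromosome 17, 35681567 to 35704621, minus strand), had 1642 reads and 65.6 TPM (62.4 to 68.8). Ddr2 lay 1.17-fold above Ddr1 per length (1.1 to 1.24). With the length of the longest coding transcript the ratio was 1.02 (0.964 to 1.08) and both lay just under the 75th percentile, at 74.7 and 74.2. Among the fibrillar collagen genes of the marker lists, Col1a1 had 59 reads, Col1a2 5 and Col3a1 0.

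Receptors that bind Wnt proteins or modulate Wnt signalling were split. Ryk, an atypical Wnt receptor with an inactive kinase domain (chromosome 9, 102834917 to 102908305, plus strand), had 2404 reads and 101 TPM (97.1 to 105), at percentile 88.4. Ptk7, a kinase-inactive receptor of planar cell polarity (chromosome 17, 46564471 to 46629504, minus strand), had 1956 reads and 69.3 TPM (66.2 to 72.4), at percentile 81.3. Ror1, which binds WNT5A, had 32 reads and 1.06 TPM (0.724 to 1.5), and its relative Ror2 had 0.

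Lmtk2, a membrane-anchored kinase of endosomal trafficking (chromosome 5, 144100436 to 144188204, plus strand), had 2530 reads and 59.5 TPM (57.2 to 61.8) and was the lowest member above the 75th percentile; with the length of the longest coding transcript it lay at percentile 65.2. Styk1, a receptor-like kinase, had 209 reads and 6.79 TPM (5.9 to 7.78). Ltk, whose ligands are the ALKAL cytokines, had 615 reads and 32.6 TPM (30.1 to 35.3), while its relative Alk had 3 reads and both ligand genes, Alkal1 and Alkal2, had 0. Exons of another gene cover 35.1% of the Alkal2 exon length.

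In the ErbB family, which binds EGF-like growth factors and neuregulins, reads were found for Erbb2 and Erbb3 but hardly for Egfr and Erbb4. Erbb2, which has no known ligand of its own (chromosome 11, 98412470 to 98437716, plus strand), had 1107 reads and 40.5 TPM (38.2 to 43), at percentile 66.4. Erbb3, a neuregulin receptor with an impaired kinase, had 512 reads and 16.2 TPM (14.9 to 17.7), so that Erbb2 exceeded it 2.5-fold (2.25 to 2.78). Egfr, the receptor of most EGF-like ligands, had 5 reads and 0.0842 TPM (0.0273 to 0.196), and Erbb4 had 0 reads. Of the 11 ligand genes 7 were detected, against 52.2% of protein-coding genes. The highest were Hbegf with 73.1 TPM (68.4 to 78), Areg with 29 TPM (25 to 33.5) and Tgfa with 23.7 TPM. These 3 ligands act through EGFR, whose own gene was among the undetected members. No other gene's exons lie on those of Egfr (0% of their length), and its transcript shares no 100-base stretch with another gene.

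Insr and Igf1r, which drive metabolic and growth signalling by insulin and insulin-like growth factors, had similar reads. Insr (chromosome 8, 3122061 to 3279617, minus strand) had 2212 reads and 30.7 TPM (29.4 to 32), and Igf1r (chromosome 7, 67952827 to 68233668, plus strand) had 2275 reads and 25.8 TPM (24.8 to 26.9). Per length Insr lay 1.19-fold above Igf1r (1.12 to 1.26). Both genes are long, at 13746 and 16791 bases, and without length correction they lay at percentiles 87.2 and 87.7 in place of 57.7 and 52. Insrr had 0 reads. Of the 4 ligand genes Igf1 had 1 read and Igf2, Ins1 and Ins2 had 0; 64.6% of the Igf2 exon length lies under exons of other genes.

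Of the FGF receptors Fgfr2, the main epithelial receptor of the family, carried nearly all reads. It had 2692 reads and 49.7 TPM (47.8 to 51.6), at percentile 72.7, or 88.5 with the length of the longest coding transcript. Fgfr3 had 128 reads and 3.41 TPM (2.84 to 4.05), with 13.9% of its exon length under exons of another gene, and Fgfr2 exceeded it 14.6-fold (12.2 to 17.5), or 26.7-fold (22.4 to 32.2) with the length of the longest coding transcript. Fgfr4 had 2 reads and Fgfr1 had 1. The deposited Fgfr2 entry spans 130162451 to 133123350 on chromosome 7 and contains other genes, whose exons cover 3.04% of its exon length. Among 22 FGF genes 4 were detected (against 52.2% of protein-coding genes) and 0 exceeded the median (against 26.1%). Fgf11, an intracellular homologue, was highest at 10.3 TPM (8.76 to 12), followed by Fgf17 at 5.98 TPM and Fgf2 at 1.63 TPM.

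Receptors of the PDGF, KIT and VEGF families, known from stromal, blood and endothelial cells, were mostly undetected. Pdgfra, a receptor of PDGF-A, PDGF-B and PDGF-C (chromosome 5, 75152292 to 75198215, plus strand), had 839 reads and 16 TPM (14.9 to 17.1). It lay at percentile 37.2, with 6.5% of its exon length under exons of other genes. Flt1, a receptor of VEGF-A, VEGF-B and placental growth factor (chromosome 5, 147561604 to 147726011, minus strand), had 413 reads and 5.83 TPM (5.28 to 6.42). Csf1r, the macrophage growth factor receptor, had 1 read, with 15.1% of its exon length under exons of other genes. No reads were counted for Kit, Flt3, Pdgfrb, Kdr and Flt4.

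Pdgfra and Flt1 also serve as markers of fibroblasts and endothelial cells. Of 7 fibroblast markers 2 were detected, Pdgfra and Col1a1. The summed level of the list was 17.8 TPM, of which Pdgfra itself made up 16 TPM. Pdgfrb, Col3a1, Dcn and Lum had 0 reads. Of 8 endothelial markers 2 were detected, Flt1 and Vwf (15 reads). The sum was 6.33 TPM, of which Flt1 itself made up 5.83 TPM. Pecam1, Kdr and Tie1 had 0 reads and Cdh5 had 1. Of 8 myeloid markers Cd68 was the only one detected, with 555 reads and 84.2 TPM (77.3 to 91.5). That level lay above both Pdgfra and Flt1, and the sum was 84.6 TPM. Exons of another gene cover 68.7% of the exon length of the myeloid marker Itgam, so its 1 read does not show its level. Of 9 T and NK cell markers Trac was the only one detected, with 46 reads and 9.38 TPM (6.87 to 12.5). Cd3d, Cd3e and Cd3g had 0 reads, and so did Ptprc of the myeloid list. The part of other cell types in the Pdgfra and Flt1 counts was not tested.

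The highest ligand genes of these families lay above the highest receptor genes. Csf1, the macrophage growth factor, had 216 TPM (211 to 222), and Pdgfb 167 TPM (162 to 173). Of the 8 ligand genes of the PDGF and KIT family 7 were detected (against 52.2% of protein-coding genes) and 5 exceeded the median (against 26.1%). Among these 5 were Pdgfa at 40.7 TPM (26.1% of its exon length under exons of another gene), Il34 at 36.2 TPM and Pdgfc at 35.3 TPM. Of the 5 VEGF genes 4 were detected, against 52.2% of protein-coding genes. Vegfb had 182 TPM (173 to 191), Vegfa 73.3 TPM (69.8 to 76.9) and Vegfc 46.7 TPM.

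In 5 families no member was detected. These were the TRK family, receptors of neurotrophins, with Ntrk2 at 1 read and Ntrk3 at 0; the TIE family of angiopoietin receptors, with Tek at 6 reads and Tie1 at 0; and Ret, Ros1 and Musk, with 0, 0 and 1 read. Ret is the signalling receptor of the GDNF family, and its co-receptor genes Gfra1 and Gfra3 had 0 reads and Gfra2 and Gfra4 2 each. Of the 5 listed RET ligand genes 3 were nevertheless detected, against 52.2% of protein-coding genes. Artn had 57.2 TPM (53.1 to 61.6), Nrtn 29.8 TPM and Gdnf 26 TPM. Of the TRK ligand genes Bdnf had 6.78 TPM (5.91 to 7.73) and Ntf5 2.95 TPM, and of the TIE ligand genes Angpt2 had 1.86 TPM (36 reads), Angpt1 1.17 TPM (32 reads) and Angpt4 0.327 TPM. Exons of other genes cover 14.4% of the exon length of Bdnf and 14.2% of that of Angpt1. For members at 0 reads the limit of 3 reads set for such a count lay between 0.019 TPM, for the long gene Ntrk3, and 0.135 TPM, for Ror2. Lower levels were not detectable at this depth.

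**Figure D2:**
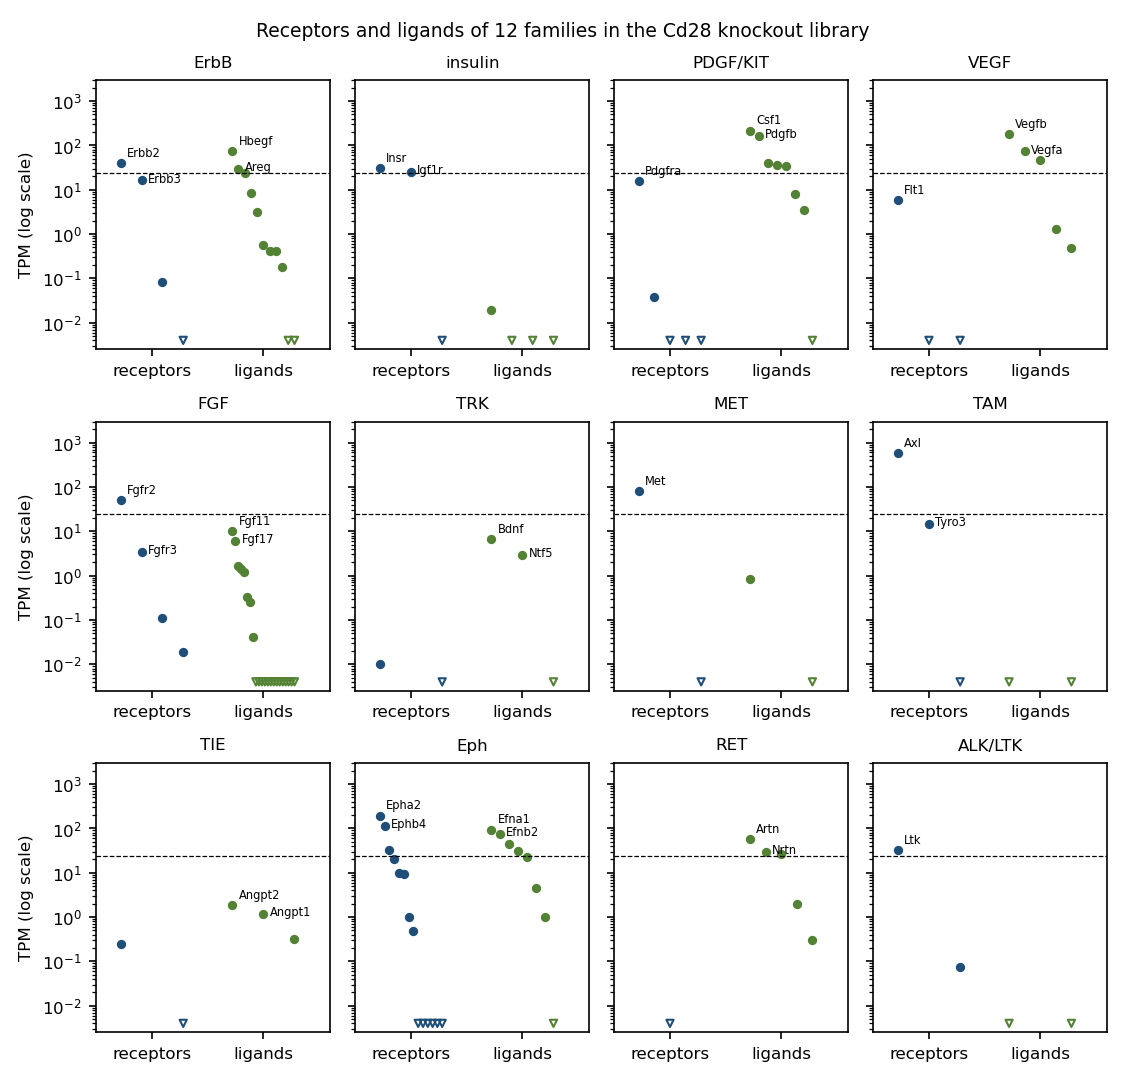
TPM on a log axis of receptor genes (left in each panel) and ligand genes (right) of 12 families in the KO library; open triangles at the bottom mark genes with 0 reads and the dashed line the median of detected protein-coding genes, 24.4 TPM. In the TAM, MET, insulin and ALK/LTK panels receptors stand without detected or with barely detected ligands. In the ErbB, PDGF/KIT, VEGF, TRK, TIE and RET panels the highest ligand gene lies above every receptor gene.

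The order of the 27 detected members depended on the gene length used. With the deposited lengths, 17 of 26 neighbouring pairs had a ratio whose interval lay above 1. With the length of the longest coding transcript, an alternative added after seeing the data, the interval stayed above 1 for 10 of these 17, included 1 for 3 and lay below 1 for 4. The 4 pairs that turned round were Ephb4 over Ryk (0.672), Ddr2 over Ptk7 (0.937), Lmtk2 over Fgfr2 (0.385) and Tyro3 over Ephb2 (0.877). Axl stood first and Epha2 second with either length. The 9 pairs that were not separated with the deposited lengths were Met and Ddr2, Ptk7 and Ddr1, Epha1 and Ltk, Ltk and Insr, Erbb3 and Pdgfra, Pdgfra and Tyro3, Ephb2 and Epha4, Styk1 and Flt1, and Ror1 and Epha8. The largest steps between neighbours were those from Fgfr3 down to Ror1, 3.22-fold (2.17 to 4.9), or 5.46-fold with the transcript length, and from Axl down to Epha2, 3.02-fold (2.92 to 3.12), or 2.99-fold. These intervals leave out the spread between cultures, which 1 library cannot show.

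**Figure D3:**
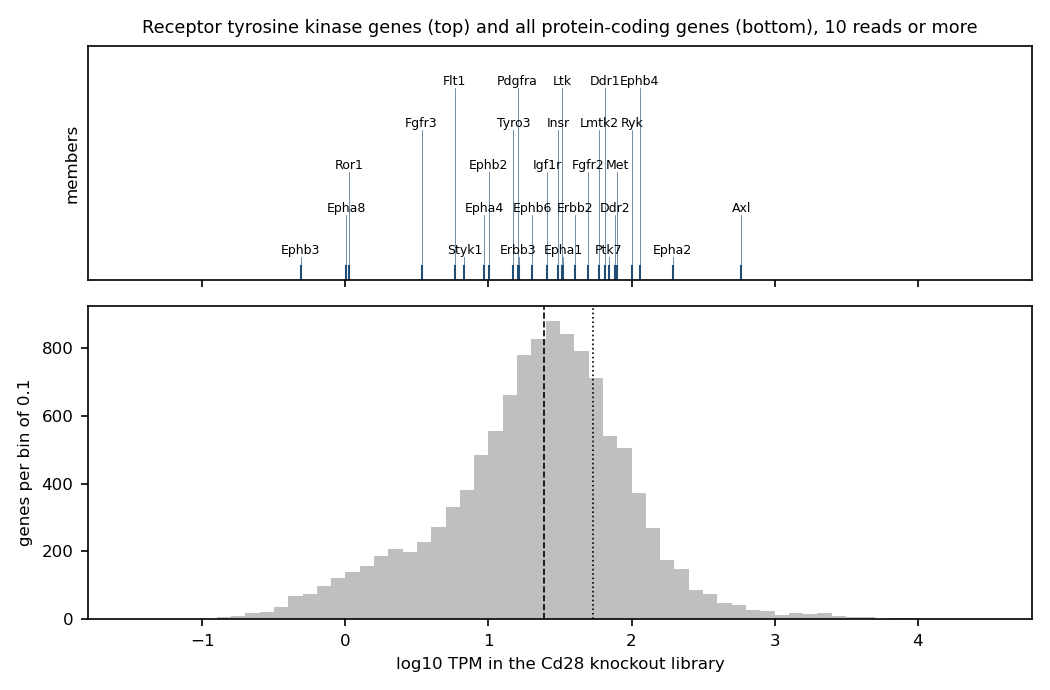
Log10 TPM of the 27 detected receptor tyrosine kinase genes (ticks, top) above the histogram of the 11497 detected protein-coding genes (bottom, genes per bin); dashed and dotted lines mark the median of 24.4 TPM and the 75th percentile of 53.8 TPM. Axl lies in the upper tail, and Ephb3, Epha8 and Ror1 in the lower one.

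Most members share no sequence with other genes. For 48 of the 55 members every 100-base stretch of the longest coding transcript was absent from the transcripts of all other genes in GENCODE vM21. The lowest share of own stretches was 83.2%, for Csf1r, and among the detected members 94.8%, for Fgfr3. Over 5% of the exon length lay under exons of other genes in 4 members, Csf1r, Fgfr3, Pdgfra and Epha1. No member at 0 reads had more than 2.17% of its exon length under another gene's exons.

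Several members are close neighbours on a chromosome, some on opposite sides and some on the same side of the detection limit. Whether neighbours differed more often than other members was not tested. Pdgfra, Kit and Kdr lie in a row on chromosome 5 with 0 protein-coding genes between them, 377 kb from Pdgfra to Kit and 276 kb from Kit to Kdr; Pdgfra had 839 reads and Kit (75574916 to 75656722) and Kdr (75932827 to 75978458) had 0 each. On the same chromosome Flt1, with 413 reads, lies 161 kb from Flt3, with 0. On chromosome 9 Ryk, with 2404 reads, lies 480 kb from Ephb1, with 0. Other neighbours lay on the same side of the detection limit. Ltk and Tyro3, 37.3 kb apart on chromosome 2, had 615 and 485 reads, with Ltk 2.19-fold higher per length (1.94 to 2.47). Pdgfrb and Csf1r, 20.5 kb apart on chromosome 18, had 0 and 1. Ephb6 and Epha1, 738 kb apart on chromosome 6, had 400 and 685 reads, and Ephb2 and Epha8, 93.4 kb apart on chromosome 4, had 666 and 25.

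**Figure D4:**
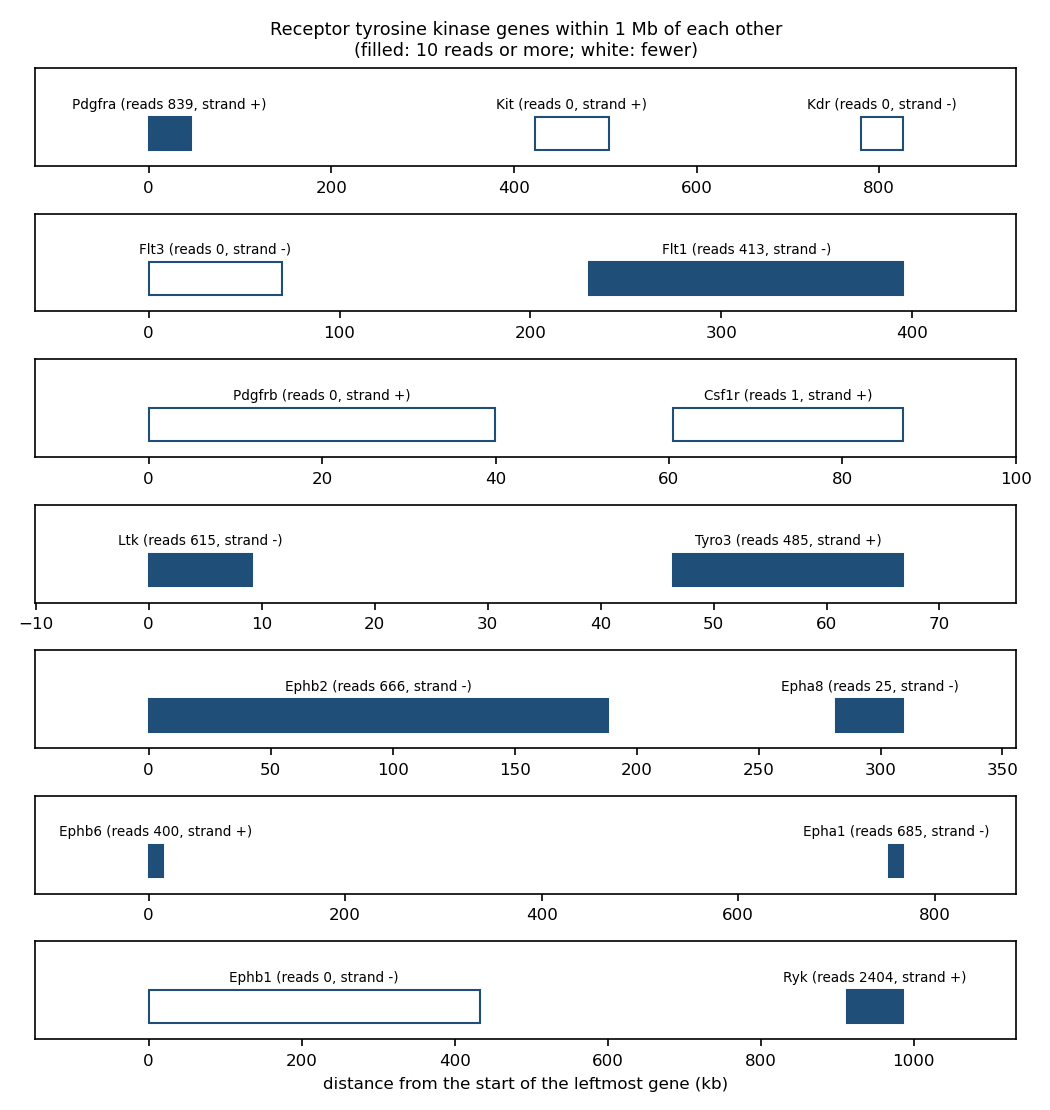
Receptor tyrosine kinase genes within 1 Mb of each other, drawn to scale as kb from the start of the leftmost gene, with the reads in the KO library; filled boxes mark genes with 10 reads or more and white boxes genes with fewer. Pdgfra is filled while Kit and Kdr beside it are white, and Ltk and Tyro3 are both filled.

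Promoter sequences were compared with these levels. A RefSeq start (build GRCm38.p6) was found for 46 of the 55 members, and the 250 bases before it were examined; where several starts were listed, the nearest to the start of the longest coding transcript was taken. For 38 members that start lay within 500 bases of the transcript's, and the largest distance was 21617 bases, for Ddr2. For the comparison over all 27025 genes, not restricted to protein-coding ones, the start with the lowest coordinate was taken on either strand. Members and comparison genes thus differ in class and in choice of start, and no trait of the members follows from the contrast. The median CpG count was 15 for 24 detected and 15 for 22 undetected members, against 5 over 27025 genes; with starts within 500 bases it was 16 for 19 detected and 13 for 19 undetected members. At least 10 CpG were present in 16 of the 24 detected and 16 of the 22 undetected members (66.7% and 72.7%), against 37.7% of all genes. The GC box GGGCGG, searched on both strands, was present in 18 detected and 13 undetected members (75% and 59.1%), against 32.7% of all genes. The AP-1 motif, TGACTCA or its reverse complement, was found in 2 of the 46, Met and Ror2, or 4.35% against 4.47% of all genes. The TATA motif TATAAA on either strand was found in 4 detected members, 1 of them Ddr2, and in 0 undetected members, against 12.9% of all genes. A match describes letters in the window and not a bound site.

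The sequences below are those of the highest 2 members, Egfr and the chromosome 5 neighbours. They were chosen after their values were seen. They are the 250 bases before the start, 5′ to 3′ on the gene's strand, with CpG in capitals. Axl is read from chr7:25788734-25788983 (minus strand), Epha2 from chr4:141300971-141301220 (plus strand), Egfr from chr11:16751953-16752202 (plus strand), Pdgfra from chr5:75152001-75152250 (plus strand), Kit from chr5:75574737-75574986 (plus strand) and Kdr from chr5:75978456-75978705 (minus strand). The Pdgfra start used lies 3648 bases from that of its longest coding transcript, and those of the other 5 lie within 46 bases.
Axl: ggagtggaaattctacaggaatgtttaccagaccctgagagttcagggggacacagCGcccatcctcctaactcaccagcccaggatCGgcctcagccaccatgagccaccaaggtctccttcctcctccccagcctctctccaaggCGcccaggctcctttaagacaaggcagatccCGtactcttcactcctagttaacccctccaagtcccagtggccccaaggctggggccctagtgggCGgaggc
Epha2: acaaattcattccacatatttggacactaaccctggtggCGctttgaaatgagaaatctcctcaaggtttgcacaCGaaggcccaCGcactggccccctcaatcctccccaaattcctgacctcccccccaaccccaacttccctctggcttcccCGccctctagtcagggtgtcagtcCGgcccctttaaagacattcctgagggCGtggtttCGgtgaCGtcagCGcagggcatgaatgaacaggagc
Egfr: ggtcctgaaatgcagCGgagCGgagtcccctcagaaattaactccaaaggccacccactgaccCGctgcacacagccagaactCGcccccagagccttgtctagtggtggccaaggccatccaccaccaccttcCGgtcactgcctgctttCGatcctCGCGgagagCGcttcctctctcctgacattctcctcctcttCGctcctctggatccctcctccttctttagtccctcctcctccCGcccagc
Pdgfra: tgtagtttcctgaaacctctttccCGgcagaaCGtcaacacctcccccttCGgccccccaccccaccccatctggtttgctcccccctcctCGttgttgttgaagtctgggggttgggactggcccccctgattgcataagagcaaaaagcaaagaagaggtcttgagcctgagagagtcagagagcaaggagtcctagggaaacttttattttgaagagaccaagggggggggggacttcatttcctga
Kit: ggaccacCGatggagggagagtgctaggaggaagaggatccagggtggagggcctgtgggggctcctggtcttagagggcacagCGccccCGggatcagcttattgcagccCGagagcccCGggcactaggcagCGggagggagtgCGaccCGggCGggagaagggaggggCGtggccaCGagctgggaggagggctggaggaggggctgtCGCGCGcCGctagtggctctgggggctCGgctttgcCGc
Kdr: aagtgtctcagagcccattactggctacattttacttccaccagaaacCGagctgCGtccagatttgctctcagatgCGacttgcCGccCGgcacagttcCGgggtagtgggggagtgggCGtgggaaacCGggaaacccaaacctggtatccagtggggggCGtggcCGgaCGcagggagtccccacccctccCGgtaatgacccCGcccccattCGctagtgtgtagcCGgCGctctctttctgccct

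Axl, with the most reads of all members, had 5 CpG in this window and Epha2 had 9. Egfr, with 5 reads, had 11, close to Epha2 and below the median of 15 over all members. Of the chromosome 5 neighbours Pdgfra, with 839 reads, had 4 CpG, and Kit and Kdr, with 0 reads, had 17 and 16. The highest count among the members was 46, for Epha8, which had 25 reads. Other members combined many CpG with many reads, among them Igf1r with 42 CpG and 2275 reads, Ryk with 33 and 2404, and Met with 24 and 3210. The 6 printed windows were picked with their values known and carry no relation between CpG and RNA. Methylation was not measured.

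Genes that carry the signal onward were widely expressed. Of 33 adaptors and effectors 29 were detected (against 52.2% of protein-coding genes), 19 exceeded the median (against 26.1%) and 10 lay above the 75th percentile (against 13%). Their median was 32.3 TPM, against 1.18 TPM over all protein-coding genes. Crk, an SH2 and SH3 adaptor, had 159 TPM (154 to 164), Nras 155 TPM (150.4 to 160) and Ptpn11, which encodes the phosphatase SHP2, 116 TPM (113 to 120). Shc2, Shc3, Grb10 and Grb14 had 0 reads. Grb2 itself had 92.3 TPM and Shc1 106 TPM.

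Feedback inhibitors and phosphatases were similarly widespread: 24 of 25 were detected, against 52.2% of protein-coding genes, and 16 exceeded the median, against 26.1%. Their own median was 34 TPM. Dusp4, a MAP kinase phosphatase induced by ERK, had 299 TPM (291 to 308), Errfi1, which inhibits ErbB receptors, 171 TPM (165 to 177), and the Sprouty gene Spry1 134 TPM (128 to 140), with 24.4% of the Spry1 exon length under exons of another gene. Spry3 had 0 reads. Errfi1 was thus among the higher genes although Egfr was undetected.

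Co-receptors ranged widely, also within a class. Of 17 listed 10 were detected (against 52.2% of protein-coding genes) and 7 exceeded the median (against 26.1%). Their own median was 5.48 TPM. The heparan sulfate proteoglycan genes Gpc1 and Sdc4, whose products present FGF and other ligands, had 324 TPM (317 to 331, with 18.9% of its exon length under exons of other genes) and 181 TPM (174 to 188), and Nrp2, a neuropilin that binds VEGF, had 143 TPM (140.1 to 146). Within these classes Sdc3 was lower, at 5.48 TPM (4.69 to 6.36), and so was Nrp1, at 15.9 TPM. The Klotho genes Kl and Klb had 0 and 2 reads, and Gfral had 0.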

How the data were processed

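Poly(A) RNA of 4T1 cells was sequenced; per the labels' protocols it was fragmented, copied with random hexamers and amplified by PCR, with no molecular identifiers mentioned, so intervals cover counting error only. The deposited table gives raw counts per gene, not normalized, and gene lengths. The submitters' processing notes name HISAT2 2.0.5, CASAVA, the build mm10 and featureCounts 1.5.0-p3. Not given in the sources used here are strand setting, annotation release and treatment of multi-mapping reads. Of 54532 gene IDs 54409 are in GENCODE vM21 (GRCm38), 53325 of them with a length equal to its merged exons; coordinates of genes are those of the table. The table has 1 column of per-sample values that matches no label and was not used. With 1 library there was no test. Levels were computed as CPM (reads per 1000000) and TPM, with exact Poisson intervals, exact binomial intervals for shares and ratios of counts, and a limit of 3 reads for a count of 0. The intervals and the search for shared stretches were tested on simulated data. Members and lists were chosen with earlier results of these data known. All members are accounted for; from each list of other genes up to 3 with the highest TPM are named, with the ligands of members above the 75th percentile, and the other genes given were chosen after their values were seen. Promoter sequences are from RefSeq; where the longest coding GENCODE transcript began in the window, its bases matched in 31 of 31 members. Python 3.11.15, numpy 2.4.6, pandas 2.3.3, scipy 1.17.1 and matplotlib 3.10.9 were used.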

Additional observations from a re-analysis of the deposited data

How the results depend on the processing

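The number of detected members was 27 at 10 reads and 35, 30 and 24 at 1, 3 and 100 reads, and 26 at 1 TPM or more, a limit added after seeing the data. The number above the median was 15 to 17 and that above the 75th percentile 7 to 12 over the settings run. Without length correction Fgfr2, Insr and Igf1r entered that set, and Fgfr2 also did so when genes with 1 read or more formed the comparison. With the length of the longest coding transcript in place of the deposited length Fgfr2 entered it, at percentile 88.5, and Ddr1, Ddr2 and Lmtk2 left it, at 74.2, 74.7 and 65.2. At 100 reads 23 ligands were detected in place of 37. Axl took 29.7% of the members' reads and 35.2% of reads divided by length; its length was 5033 bases and the members' median 6641. The percentile rose for all 27 detected members when genes with 1 read or more formed the comparison, by 0.22 to 15.2 points (Ephb3 15.2 in place of 1.31), and for 24 of 27 without length correction (Pdgfra 60.5 in place of 37.2, Ephb2 53.6 in place of 26.6, Flt1 39.6 in place of 17.9). Ratios between members turned round for Ephb4 over Ryk (0.672), Ddr2 over Ptk7 (0.937), Lmtk2 over Fgfr2 (0.385) and Tyro3 over Ephb2 (0.877) with transcript length. Without length correction this held for Ryk over Met (0.749), Ddr1 over Lmtk2 (0.649), Lmtk2 over Fgfr2 (0.9398), Ephb6 over Erbb3 (0.781) and Tyro3 over Ephb2 (0.728). For Insr over Igf1r the ratio was then 0.972, with an interval that included 1 (0.917 to 1.03). Totals without mitochondrial genes and the 100 most abundant genes raised every member's CPM by the same factor of 1.24. No paired analysis was possible because a single library entered. Leaving out a replicate could not be done for the same reason. Depth limits the members under 10 reads.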

Other observations

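Receptors described as lacking an active kinase were not confined to low levels. Of 5 members listed as such, Erbb3, Ephb6, Epha10, Ryk and Ptk7, 4 were detected, against 52.2% of protein-coding genes. Above the median lay 2, against 26.1%. Ror1 (1.06 TPM), Ror2 (0 reads) and Styk1 (6.79 TPM) were not counted in this group, which would hold more low genes with them. Together the 5 made up 12.4% of the members' summed TPM, against 87.6% for the other 50 members, of which 23 were detected. Most of their sum came from Ryk and Ptk7.

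Genes that release ligands from the membrane or sort receptors after endocytosis were nearly all detected, 9 of 10 against 52.2% of protein-coding genes, and 9 exceeded the median, against 26.1%. Rhbdf1, an inactive rhomboid that carries ADAM17 to the surface, had 88.4 TPM (85 to 92), the deubiquitinase gene Usp8 80.4 TPM (76.6 to 84.2), and the sheddase gene Adam10 78.2 TPM (74.8 to 81.7). Adam17, which releases TGF-alpha and amphiregulin, had 25.1 TPM. The remaining gene, Hgs, had 0 reads; it is annotated under 2 IDs, and 97.2% of the exon length of the entry used lies under the exons of the other, so its count does not show its level.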
